A study of Rattus norvegicus with 24 samples.

Results

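Genes of blood vessel growth and of the endothelium, the cells that line vessels, were followed in neonatal rats given a glucocorticoid, in the lung and in the liver. They are 8 of the 30560 Ensembl gene identifiers in the count tables, chosen by a fixed list of identifiers: Vegfa (ENSRNOG00000019598), Kdr (ENSRNOG00000046829), Flt1 (ENSRNOG00000000940), Tek (ENSRNOG00000008587), Edn1 (ENSRNOG00000014361), Nos3 (ENSRNOG00000009348), Pecam1 (ENSRNOG00000009157) and Vwf (ENSRNOG00000019689). Gene names come from that list, since the count tables pair no identifier with a name. The question was how a steroid affects genes of lung vessel growth.

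The animals were wild-type Sprague Dawley pups, harvested at postnatal day 6. From postnatal day 1 they received 5 daily injections under the skin, of 1.25 mg/kg desisobutyryl ciclesonide, of 0.1 mg/kg dexamethasone, or of the vehicle alone (2.5% ethanol), and whole lung and liver were frozen 24 hours after the last one. Both drugs are glucocorticoids: dexamethasone is a potent synthetic one, and desisobutyryl ciclesonide is what the body makes from the inhaled prodrug ciclesonide. Polyadenylated RNA was sequenced as 24 bulk libraries in 6 groups of 4. The drugs were given at different doses, so a difference between them is a difference between these treatments and not between the compounds at a matched dose. The labels name no litters, and p-values measure the spread between these libraries.

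As background, VEGF-A is the main growth factor for vessels, and in the lung after birth it is made largely by epithelial cells lying beside the capillaries. It acts on endothelial cells mainly through the receptor KDR (VEGFR2), while FLT1 (VEGFR1) binds it tightly, signals weakly and has a soluble form that traps it. TEK (TIE2), the receptor for angiopoietins, governs how stable vessels are, and endothelin 1 and the nitric oxide made by NOS3 narrow and widen them. In the weeks after birth the rat lung divides its air spaces and its capillary network grows with them.

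Dexamethasone moved the receptors in opposite directions in lung: Kdr fell while Flt1 and Tek rose. Because of that contrast, the 250 bases before the annotated start of Kdr and of Flt1 are shown, from RefSeq on build GRCr8, on the plus strand, 5′ to 3′. The Kdr window is chr14:32571813-32572062 and the Flt1 window is chr12:12333180-12333429. Capitals mark matches to any of 5 motifs, searched on both strands.
Kdr: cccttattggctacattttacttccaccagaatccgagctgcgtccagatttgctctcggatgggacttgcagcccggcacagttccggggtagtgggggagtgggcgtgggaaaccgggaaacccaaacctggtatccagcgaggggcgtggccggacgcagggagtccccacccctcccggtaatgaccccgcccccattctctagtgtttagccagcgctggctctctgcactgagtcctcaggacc
Flt1: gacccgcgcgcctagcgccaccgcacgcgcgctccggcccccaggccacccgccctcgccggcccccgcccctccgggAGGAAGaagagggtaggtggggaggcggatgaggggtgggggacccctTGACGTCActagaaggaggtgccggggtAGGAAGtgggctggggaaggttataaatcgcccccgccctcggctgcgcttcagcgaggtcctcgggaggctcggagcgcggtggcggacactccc
The motifs were the glucocorticoid receptor half-site AGAACA, the full glucocorticoid response element (AGAACA, 3 bases of any kind, then TGTTCT), the ETS core AGGAAG, the cyclic AMP response element TGACGTCA and the hypoxia response element core ACGTG. The half-site is part of the full element, so a full match also counts as a half-site match. The Flt1 window held AGGAAG at 172 and 96 bases before the start and TGACGTCA at 124 bases before it. The exact letters of none of the 5 motifs were in the Kdr window. Only these exact letters were searched, so a window without a match can hold other forms of a site. Counting both strands, both windows hold GGAA and GCGTG, other forms of the ETS and hypoxia cores, which were not searched. Of 33469 rat promoter windows of the same length, 29.5% held AGGAAG and 1.59% held TGACGTCA. The full response element was in 0.0120% of them, the half-site in 17.5% and ACGTG in 16.6%. GC content was 73.2% for Flt1 and 61.6% for Kdr, against a median of 51.2% over all windows. The ETS and cyclic AMP motifs were added after the Flt1 sequence had been read, and a match describes letters, not a bound site.
Windows were at hand for 5 of the 8 genes. Nos3 held 1 ETS core, Edn1 1 ACGTG, and the second of 2 Vegfa windows 1 half-site.

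Lung libraries held 15839958 to 27881158 counts assigned to genes, and liver libraries held 15397992 to 26194384. All 8 genes passed the low-count filter in both tissues. Levels are CPM, counts relative to a common library size, with library sizes scaled by edgeR's TMM method within a tissue. They depend on transcript length, so they are compared between libraries and not between genes. A gene was called changed at an adjusted p under 0.05 in edgeR's quasi-likelihood test, adjusted by the Benjamini-Hochberg method over all genes tested. In bulk tissue fewer endothelial cells and less RNA per cell cannot be told apart. The share of reads not aligned was 1.08% ± 0.158 in desisobutyryl ciclesonide lung, 2.66% ± 0.706 in dexamethasone lung and 2.64% ± 0.287 in vehicle lung (SD, n = 4 each). In liver it was 1.10% ± 0.258 with desisobutyryl ciclesonide, 2.20% ± 0.227 with dexamethasone and 2.69% ± 0.522 with vehicle (SD, n = 4 each). Reads not assigned to a gene made up 28.6% to 31.8% of a library in dexamethasone lung and 26.4% to 27.7% in vehicle lung. In desisobutyryl ciclesonide lung they made up 22.6% to 23.9%. In liver the shares were 22.3% to 22.8% with dexamethasone, 21.8% to 22.7% with vehicle and 16.8% to 19.3% with desisobutyryl ciclesonide. Libraries of desisobutyryl ciclesonide thus differed from the others in both technical measures, and those of dexamethasone lung in the second. These differences and the drugs cannot be told apart.

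Lung dexamethasone replicates 3 and 4 stood apart from the other lung libraries. In both of them the same 25 genes exceeded all other lung libraries by 4-fold or more, and these genes summed to 1575 and 4758 CPM in these libraries and to at most 68.2 CPM elsewhere. None of the 8 genes was among them (0 of 25). Without both libraries 5 of the 8 genes were again called between dexamethasone and vehicle lung.

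In lung, dexamethasone raised 3 of the 8 genes (Flt1, Tek and Nos3) and lowered 2 (Kdr and Vwf), while Vegfa, Edn1 and Pecam1 did not pass the test. Of all 16108 genes tested, 55.6% were called, 26.9% higher and 28.7% lower, so 5 of 8 lies near the share of all genes. The median log2 change of the 8 genes was 0.01, against -0.01 over all genes, and the median absolute log2 change was 0.48, against 0.53. The groups did not overlap for 4 of the 8, as for 50.3% of all genes. Within the list, the largest log2 changes were those of the 3 receptors, Kdr downward and Flt1 and Tek upward.

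**Figure D1:**
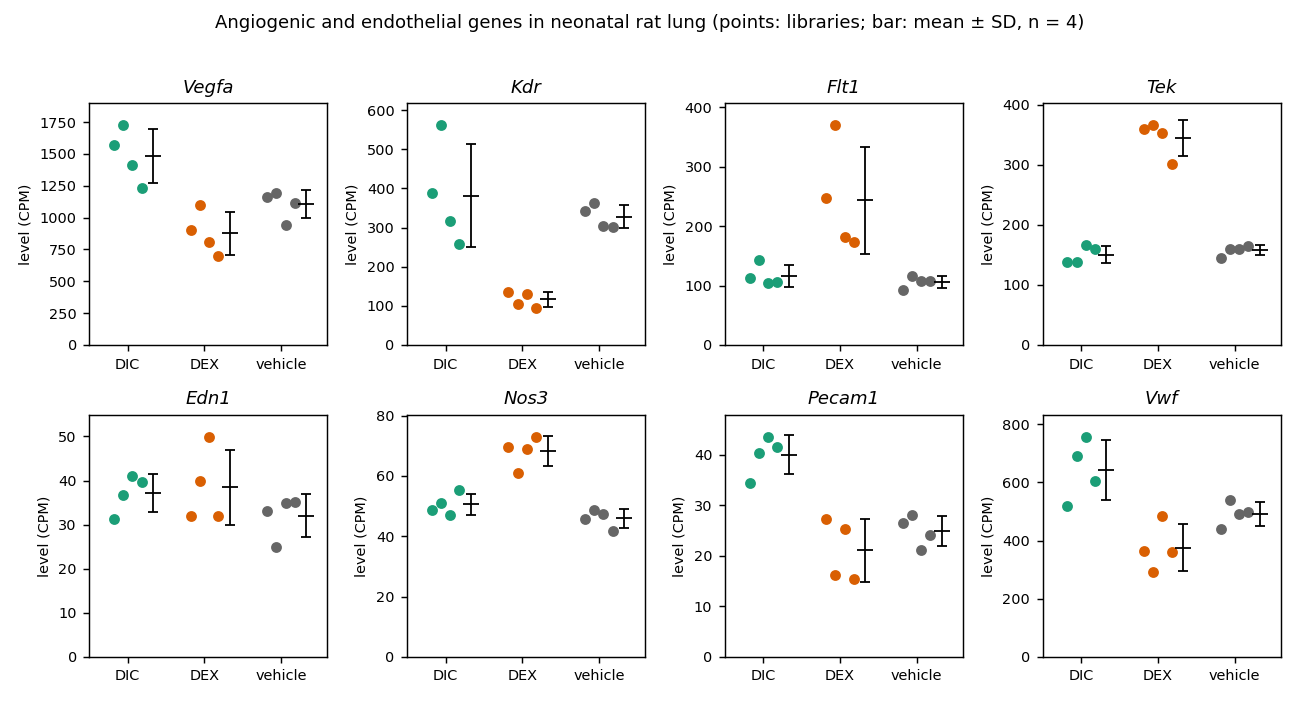
Level in CPM (vertical axes, from 0) of each of the 8 genes in each lung library, for desisobutyryl ciclesonide (DIC), dexamethasone (DEX) and vehicle, with mean and SD of 4 libraries beside the points. Kdr lies at 95.7 to 135.0 CPM in all 4 DEX libraries, below every other library, while Flt1, Tek and Nos3 lie above every vehicle library.

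The ligand Vegfa was at 904, 1097, 808 and 696 CPM in dexamethasone lung, against 1165, 1192, 944 and 1117 CPM in vehicle lung. The groups overlapped, and the log2 change of -0.33 (SE 0.15) had an adjusted p of 0.0659 in edgeR. It passed the threshold without dexamethasone replicate 2 (log2 change -0.46, adjusted p in edgeR 0.0123) or vehicle replicate 3 (-0.40, adjusted p 0.0472), and with library totals in place of TMM (-0.43, adjusted p 0.0152). The log2 change was smaller without dexamethasone replicate 4 (-0.22, adjusted p 0.224) and smallest without the 2 libraries that stood apart, replicates 3 and 4 (-0.13, adjusted p 0.503).

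Kdr, the main signalling receptor for VEGF-A, was at 135.0, 106, 131 and 95.7 CPM in dexamethasone lung, against 341, 363, 304 and 302 CPM in vehicle lung. Every dexamethasone library lay below every vehicle library. The level was 2.81-fold lower (log2 change -1.49, SE 0.20, adjusted p in edgeR 4.72e-05), and 7.37% of all genes had a lower log2 change. Leaving out any 1 library kept the log2 change between -1.57 and -1.39.

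Flt1, the receptor that binds VEGF-A tightly and signals weakly, was at 248, 369.8, 181 and 174 CPM in dexamethasone lung, against 92.1, 117, 108.5 and 108.3 CPM in vehicle lung. All 4 dexamethasone libraries were above the vehicle libraries, and replicate 2 was the highest by a wide margin. The level was 2.29-fold higher (log2 change 1.19, SE 0.21, adjusted p in edgeR 0.000369), and the log2 change was 0.92 to 1.34 when any 1 library was left out. The lower Flt1 values belonged to the 2 libraries that stood apart, and without both the log2 change was 1.55 (adjusted p in edgeR 1.82e-05). The counts give 1 value per gene, so the soluble and membrane forms were not separated.

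Tek, the angiopoietin receptor, was at 359.5, 366, 352 and 301 CPM in dexamethasone lung, against 145.5, 159.6, 159.7 and 165 CPM in vehicle lung. The groups were far apart, with narrow spread in each. The level was 2.19-fold higher (log2 change 1.13, SE 0.09, adjusted p in edgeR 6.09e-07).

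Of the genes that set vessel tone, Nos3, the endothelial nitric oxide synthase, was at 69.7, 61.1, 68.9 and 72.8 CPM in dexamethasone lung, against 45.8, 48.8, 47.5 and 41.7 CPM in vehicle lung. The groups did not overlap, and the level was 1.48-fold higher (log2 change 0.57, SE 0.09, adjusted p in edgeR 0.000113). Edn1, which encodes the vasoconstrictor endothelin 1, was at 32, 40.0, 49.8 and 31.9 CPM in dexamethasone lung, against 33.2, 24.8, 35.0 and 35.1 CPM in vehicle lung. These values overlapped (log2 change 0.26, SE 0.16, adjusted p in edgeR 0.175), and the log2 change was 0.12 without dexamethasone replicate 3 and 0.36 without replicate 4, neither past the threshold.

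Of Pecam1 and Vwf, used as markers of endothelial cells, Pecam1 did not pass the test with dexamethasone. Vwf was called lower, a call that was lost in some alternatives. The level listed for Pecam1 was low for a marker of all endothelial cells, although levels also depend on transcript length. The pairing of identifier and name could not be checked for Pecam1 or for any other gene of the list. The Pecam1 values here and below are therefore those of the identifier. Pecam1, an adhesion molecule of endothelial junctions that platelets and leukocytes also carry, was at 27.3, 16.2, 25.4 and 15.4 CPM in dexamethasone lung, against 26.5, 28, 21.1 and 24.2 CPM in vehicle lung. Dexamethasone replicates 2 and 4 were below all vehicle libraries and replicates 1 and 3 were among them (log2 change -0.24, SE 0.18, adjusted p in edgeR 0.264). Leaving out dexamethasone replicate 1 gave -0.39 (adjusted p 0.0710) and leaving out replicate 4 gave -0.10 (adjusted p 0.637).
Vwf, the clotting factor that endothelial cells store, was at 363, 292, 486 and 361 CPM in dexamethasone lung, against 440.3, 539.6, 492 and 497 CPM in vehicle lung. Replicate 3 reached the vehicle range and the other dexamethasone libraries lay below it. The log2 change was -0.39 (SE 0.15) with an adjusted p of 0.0403 in edgeR. That call was lost without dexamethasone replicate 1, 2 or 4 or vehicle replicate 2, 3 or 4, with an adjusted p of up to 0.115, and also with DESeq2's size factors in edgeR (adjusted p 0.0522). Over all alternatives run the adjusted p was 0.00600 to 0.115.

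Desisobutyryl ciclesonide raised 2 of the 8 genes in lung, Vegfa and Pecam1, and lowered none (0 of 8). Over all genes 24.1% were called, 11.8% higher and 12.3% lower. The median log2 change of the 8 genes was 0.22, against -0.01 over all genes. For those 2 genes the groups did not overlap, as for 33.2% of all genes. The receptors that dexamethasone moved most did not pass the test with this drug. Both drugs were set against the same 4 vehicle libraries.

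Vegfa was at 1571, 1724, 1411 and 1235 CPM in desisobutyryl ciclesonide lung, all above the highest vehicle library at 1192 CPM. The level was 1.34-fold higher (log2 change 0.43, SE 0.15, adjusted p in edgeR 0.0479). The call did not hold without desisobutyryl ciclesonide replicate 1, 2 or 3 or without any 1 of the 4 vehicle libraries, with an adjusted p of up to 0.145. It was also lost with no filter on low counts (adjusted p 0.0531) and with library totals in place of TMM (adjusted p 0.0840), and over all alternatives run the adjusted p was 0.0179 to 0.145.
Pecam1 was at 34.5, 40.4, 43.5 and 41.5 CPM in desisobutyryl ciclesonide lung, all above the highest vehicle library at 28 CPM. The level was 1.60-fold higher (log2 change 0.68, SE 0.18, adjusted p in edgeR 0.0148). The call was not lost with any 1 library left out, nor in the other alternatives run. Over all of these the adjusted p was 0.00167 to 0.04996, the highest lying just under the threshold.
Vwf was at 518, 690.0, 755 and 604 CPM in desisobutyryl ciclesonide lung, and its lowest library lay within the vehicle range. The log2 change of 0.38 (SE 0.15) had an adjusted p of 0.0819 in edgeR, and 0.0275 to 0.230 over the alternatives run. It passed in DESeq2 (adjusted p 0.0392), when only these 2 groups were fitted (0.0275) and without desisobutyryl ciclesonide replicate 1 (0.0459).

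Kdr was at 389, 561, 318 and 259 CPM in desisobutyryl ciclesonide lung, on both sides of the vehicle range. Its log2 change was 0.22 with a 95% confidence interval of -0.21 to 0.65 (adjusted p in edgeR 0.456), and without replicate 2 of this drug, the highest library, it was -0.03.
Flt1 was at 113, 144, 104 and 107 CPM and Tek at 138, 138, 166 and 159.7 CPM in these lungs. Both overlapped vehicle, with 95% intervals of the log2 change of -0.32 to 0.58 for Flt1 and -0.27 to 0.13 for Tek. Nos3 was at 48.6, 51.1, 47.1 and 55.4 CPM and Edn1 at 31.2, 36.8, 40.9 and 39.6 CPM, again overlapping vehicle (adjusted p in edgeR 0.282 for Nos3 and 0.360 for Edn1).

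The steroids were also set against each other in lung, at their unequal doses. With desisobutyryl ciclesonide 4 of the 8 genes were higher than with dexamethasone (Vegfa, Kdr, Pecam1 and Vwf) and 3 were lower (Flt1, Tek and Nos3). Of all genes 49.5% were called, 25% higher and 24.4% lower. For 7 of the 8 genes the groups did not overlap, as for 43.9% of all genes. The median absolute log2 change was 0.85 over the 8 genes and 0.46 over all genes.
Kdr averaged 382 ± 131 CPM with desisobutyryl ciclesonide and 117 ± 19.0 CPM with dexamethasone (SD, n = 4 each), 3.27-fold higher (log2 difference 1.71, SE 0.20, adjusted p in edgeR 3.33e-05).
Tek averaged 150.5 ± 14.4 CPM with desisobutyryl ciclesonide and 345 ± 29.5 CPM with dexamethasone (SD, n = 4 each), 2.29-fold lower (log2 difference -1.20, adjusted p in edgeR 1.74e-06). Flt1 averaged 117 ± 18.3 CPM with desisobutyryl ciclesonide and 243 ± 90.7 CPM with dexamethasone (SD, n = 4 each; log2 difference -1.06, adjusted p in edgeR 0.00120).
Nos3 followed the same direction (log2 difference -0.43, adjusted p in edgeR 0.00132). Vegfa, Pecam1 and Vwf had log2 differences of 0.76, 0.92 and 0.77, with adjusted p-values in edgeR of 0.000856, 0.000903 and 0.000982. These 7 calls held in edgeR with any 1 library left out. Edn1, the exception, had a log2 difference of -0.05 with a 95% interval of -0.39 to 0.29 (adjusted p in edgeR 0.815).

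**Figure D2:**
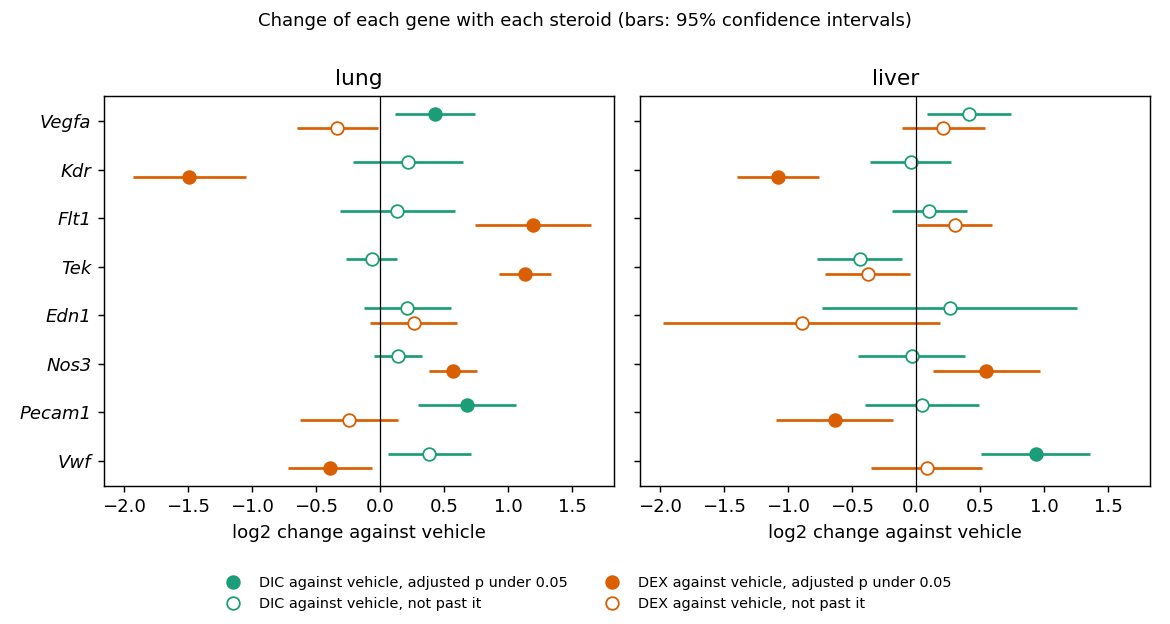
Log2 change against vehicle (horizontal axis) of each gene in lung and in liver with desisobutyryl ciclesonide (DIC) and dexamethasone (DEX), with 95% confidence intervals as bars and filled points where the adjusted p was under 0.05. With DEX Kdr lies at -1.49 in lung and -1.08 in liver, while Tek lies at 1.13 in lung and -0.38 in liver.

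The balance between receptors was described as the ratio of their counts in each library. The ratios were chosen after the levels had been seen and carry no test, and since counts depend on transcript length only differences between libraries can be read from them. Flt1 counts per Kdr count were 1.84, 3.50, 1.39 and 1.82 in dexamethasone lung, against 0.270, 0.321, 0.357 and 0.359 in vehicle lung. With desisobutyryl ciclesonide they were 0.290, 0.256, 0.326 and 0.412, around the vehicle range. Tek counts per Kdr count were 2.66 to 3.46 in dexamethasone lung and 0.426 to 0.547 in vehicle lung. Vegfa counts per Flt1 count were 2.97 to 4.45 in dexamethasone lung, against 8.70 to 12.6 in vehicle lung. Per Kdr count the ratio moved the other way, with 6.19 to 10.4 Vegfa counts in dexamethasone lung and 3.10 to 3.70 in vehicle lung. Vegfa itself was not called in that comparison (log2 change -0.33), while Kdr was lower (log2 change -1.49).

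**Figure D3:**
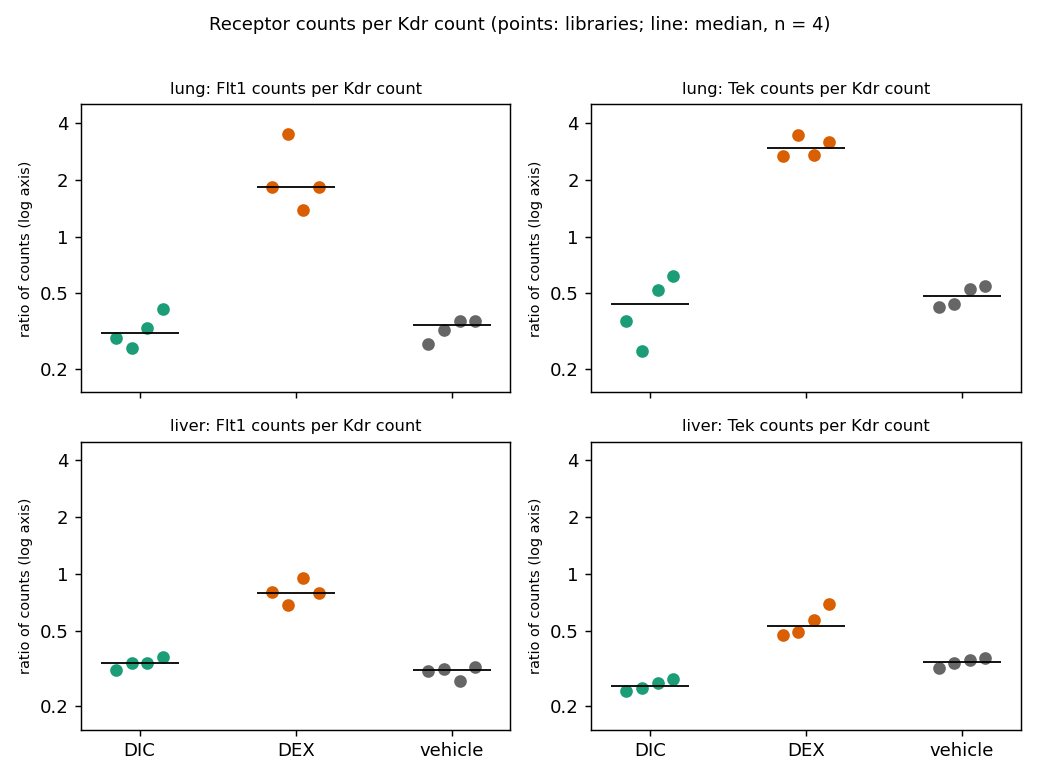
Flt1 and Tek counts per Kdr count (vertical axes, log scale) in each library of lung (top) and liver (bottom) with desisobutyryl ciclesonide (DIC), dexamethasone (DEX) and vehicle, with the median of 4 libraries as a line. All DEX libraries lie above all vehicle libraries in each panel, and in lung the medians of Flt1 per Kdr are 1.83 with DEX and 0.339 with vehicle. In liver Tek itself did not rise with DEX (log2 change -0.38, not called), and Kdr fell further (log2 change -1.08). There the higher Tek per Kdr is therefore not a rise of Tek, unlike in lung (Tek log2 change 1.13).

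Likeness between genes was measured over the 12 lung libraries as the root mean square difference of log2(CPM + 1) after the vehicle mean of each gene was taken off. It describes the same libraries and carries no test. Flt1 and Tek were closest to each other (0.29), and so were Pecam1 and Vwf (0.27) and Nos3 and Edn1 (0.31). Kdr was far from all, with Vwf its closest at 0.70 and Tek its farthest at 1.55. Among 13618 other genes with a mean of at least 2 CPM, 168 were closer to Flt1 than Tek was, and 359 to Tek than Flt1 was. Likewise 114 were closer to Pecam1 than Vwf was, and 401 to Vwf than Pecam1 was. Vegfa was closest to Vwf (0.32), and 841 other genes were closer to Vegfa than that. More were closer in the other cases: 2483 to Nos3 than Edn1 was, 1903 to Edn1 than Nos3 was, and 2928 to Kdr than Vwf was.

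In liver, dexamethasone lowered Kdr and Pecam1 and raised Nos3, and the other 5 genes did not pass the test. Of 13734 genes tested, 47.5% were called, 22.5% higher and 24.9% lower. The median log2 change of the 8 genes was -0.15, against -0.02 over all genes. The groups did not overlap for 3 of the 8 (Kdr, Tek and Pecam1), as for 42.5% of all genes.

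Kdr was at 18.9, 29.8, 18.4 and 20.4 CPM in dexamethasone liver, against 54.2, 44.9, 42.5 and 43.7 CPM in vehicle liver. All 4 dexamethasone libraries were lower, by 2.12-fold (log2 change -1.08, SE 0.15, adjusted p in edgeR 4.14e-05), and the call held without any 1 library.
Flt1 was at 15.2, 20.6, 17.5 and 16.2 CPM in dexamethasone liver, against 16.7, 14.2, 11.6 and 14.0 CPM in vehicle liver. The groups overlapped (log2 change 0.30, SE 0.14, adjusted p in edgeR 0.0859), and without vehicle replicate 1, the highest vehicle library, the adjusted p was 0.0421, the lowest over the alternatives run, the highest being 0.797.
Tek was at 8.98, 14.6, 10.5 and 14.2 CPM in dexamethasone liver, against 17.2, 15.1, 14.9 and 15.6 CPM in vehicle liver. All dexamethasone values were below the vehicle values, yet the log2 change of -0.38 (SE 0.16) had an adjusted p of 0.0547 in edgeR. It passed the threshold without dexamethasone replicate 2 (adjusted p 0.0227), without replicate 4 (adjusted p 0.0360) and with library totals in place of TMM (log2 change -0.62, adjusted p 0.00660), a scaling that moved the median log2 change of all genes by -0.24. The highest adjusted p over the alternatives run was 0.144.

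Nos3 was at 20.2, 29.6, 23.7 and 21.7 CPM in dexamethasone liver, against 21.6, 15.6, 10.1 and 17.9 CPM in vehicle liver. Vehicle replicate 1 lay within the dexamethasone range (log2 change 0.55, SE 0.20, adjusted p in edgeR 0.0318). The call was lost without dexamethasone replicate 2 or 3 or vehicle replicate 2 or 3, with an adjusted p of up to 0.0959, when only these 2 groups were fitted (adjusted p 0.0570), and with library totals in place of TMM, where the log2 change was 0.29 (adjusted p 0.265).
Pecam1 was at 3.61, 5.10, 3.02 and 4.51 CPM in dexamethasone liver, against 7.24, 6.20, 5.55 and 6.19 CPM in vehicle liver. The groups did not overlap (log2 change -0.64, SE 0.21, adjusted p in edgeR 0.0231), but the call was lost without dexamethasone replicate 1 or 3 or vehicle replicate 1, with an adjusted p of up to 0.0743.
Vegfa was at 229, 295, 301.0 and 299 CPM in dexamethasone liver, against 292, 247, 181 and 252 CPM in vehicle liver (log2 change 0.21, adjusted p in edgeR 0.272). Vwf averaged 12.6 ± 1.90 CPM in dexamethasone liver and 11.9 ± 1.99 CPM in vehicle liver (SD, n = 4 each; adjusted p in edgeR 0.768). Edn1 rested on few counts, with 5, 2, 10 and 12 counts in dexamethasone liver, against 13, 7, 12 and 26 counts in vehicle liver (log2 change -0.89, 95% interval -1.97 to 0.18, adjusted p in edgeR 0.160). Its log2 change was -1.25 without dexamethasone replicate 4 and -0.47 without vehicle replicate 4, neither past the threshold.

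**Figure D4:**
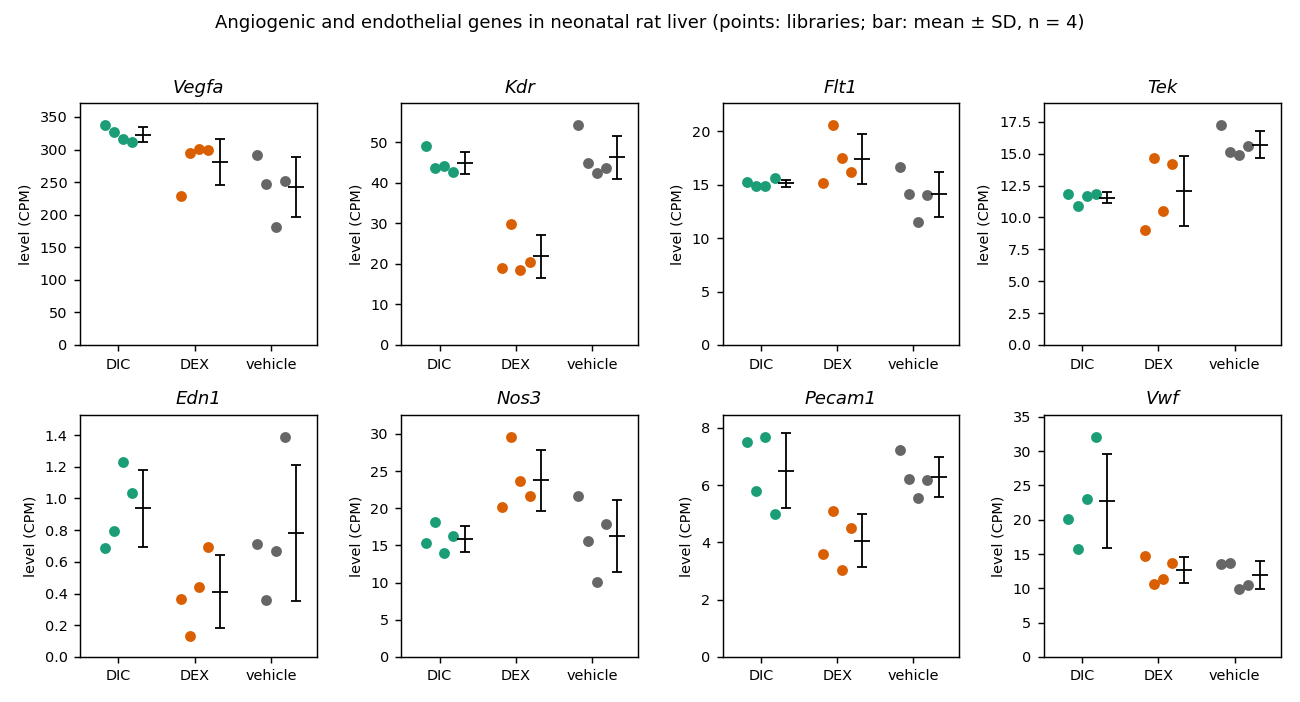
Level in CPM (vertical axes, from 0) of each of the 8 genes in each liver library, for desisobutyryl ciclesonide (DIC), dexamethasone (DEX) and vehicle, with mean and SD of 4 libraries beside the points. Kdr lies at 18.4 to 29.8 CPM with DEX, below all other libraries, and all 4 Vwf values with DIC, at 15.7 to 32 CPM, lie above the vehicle libraries.

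Desisobutyryl ciclesonide raised 1 of the 8 genes in liver, Vwf, where 4.52% of all genes were called, 2.09% higher and 2.43% lower. Vwf was at 20.2, 15.7, 23.0 and 32 CPM with this drug, against 13.5, 13.7, 9.94 and 10.5 CPM in vehicle liver. All treated libraries lay above the vehicle libraries, and the level was 1.91-fold higher (log2 change 0.93, SE 0.20, adjusted p in edgeR 0.0168). The adjusted p was 0.0531 without desisobutyryl ciclesonide replicate 4, the highest library (log2 change 0.72), 0.0611 without vehicle replicate 3 and 0.0515 without vehicle replicate 4.
The groups also did not overlap for Vegfa and Tek, making 3 of 8, as for 15.7% of all genes. Vegfa was at 337, 327, 317 and 312 CPM with desisobutyryl ciclesonide (log2 change against vehicle 0.41, adjusted p in edgeR 0.136). Tek was at 11.8, 10.9, 11.7 and 11.8 CPM (log2 change against vehicle -0.44, adjusted p in edgeR 0.117, or 0.0452 when only these 2 groups were fitted). Kdr averaged 44.9 ± 2.82 CPM with desisobutyryl ciclesonide and 46.3 ± 5.33 CPM with vehicle (SD, n = 4 each), with a 95% interval of the log2 change of -0.36 to 0.27. The median log2 change of the 8 genes was 0.07, against -0.01 over all genes. Flt1, Nos3, Pecam1 and Edn1 overlapped vehicle and had log2 changes of 0.10, -0.03, 0.04 and 0.26, with adjusted p-values in edgeR of 0.721, 0.946, 0.935 and 0.800.

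Between the drugs in liver, 3 of the 8 genes were called higher and 1 lower with desisobutyryl ciclesonide, where 46.3% of all genes were called, 23.8% higher and 22.5% lower. The groups did not overlap for 4 of the 8 (Vegfa, Kdr, Nos3 and Vwf), as for 41.6% of all genes, and the median log2 difference was 0.44 over the 8 genes and 0.00276 over all genes. With desisobutyryl ciclesonide Kdr was 2.05-fold higher than with dexamethasone (log2 difference 1.04, adjusted p in edgeR 6.63e-05) and Vwf 1.80-fold higher (log2 difference 0.85, adjusted p in edgeR 0.00296), and neither call was lost with any 1 library left out. Pecam1 was higher (log2 difference 0.68, adjusted p in edgeR 0.0171), a call lost without desisobutyryl ciclesonide replicate 1 or 3 or dexamethasone replicate 3, where the adjusted p was up to 0.0552. Nos3 was lower (log2 difference -0.58, adjusted p in edgeR 0.0244), a call lost without desisobutyryl ciclesonide replicate 1 or 3 or dexamethasone replicate 2, with an adjusted p of up to 0.0799, and with library totals in place of TMM (log2 difference -0.38, adjusted p 0.148). Vegfa, Flt1 and Tek had log2 differences of 0.20, -0.20 and -0.06, and none of these 3 passed the test. Edn1 had a log2 difference of 1.15 (95% interval 0.09 to 2.22, adjusted p in edgeR 0.0709), with 0.0408 without dexamethasone replicate 4 and 0.0374 to 0.164 over the alternatives run.

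Whether dexamethasone acted differently in lung and liver was tested as the lung log2 change less the liver log2 change, in all 24 libraries. Of 16477 genes, 28.7% were called, 14.9% higher and 13.8% lower, and of the 8 genes 2 were called, both higher. For Tek the difference was 1.53 (SE 0.17, adjusted p in edgeR 5.95e-07), with values above vehicle in all 4 dexamethasone lungs and below it in all 4 dexamethasone livers. For Flt1 it was 0.91 (SE 0.25, adjusted p in edgeR 0.00825). Kdr, lower with dexamethasone in both tissues, had a difference of -0.39 with a 95% interval of -0.91 to 0.14 (adjusted p in edgeR 0.278). Nos3, higher in both, had a difference of 0.04 (95% interval -0.41 to 0.50, adjusted p in edgeR 0.931).
Vegfa had a difference of -0.53 (adjusted p in edgeR 0.0781), which passed without lung dexamethasone replicate 2 (0.0388), liver dexamethasone replicate 1 (0.0430) or liver vehicle replicate 1 (0.0431), and in DESeq2 (0.0408). Over the alternatives run its adjusted p was 0.0388 to 0.367, the highest without lung dexamethasone replicates 3 and 4 together, where the difference was -0.32. Edn1 had a difference of 1.16 (adjusted p in edgeR 0.0579). It passed without lung dexamethasone replicate 1 (0.0432) or 4 (0.0446), liver dexamethasone replicate 4 (0.0227) or liver vehicle replicate 2 (0.0195), in DESeq2 (0.0260) and with library totals in place of TMM (0.0414). Its highest adjusted p, 0.234, came without liver vehicle replicate 4, where the difference was 0.73. For desisobutyryl ciclesonide 0 of the 8 genes were called in edgeR between tissues, where 3.39% of all genes were called, 1.68% higher and 1.71% lower. At an unadjusted p under 0.05 there were 2 of 8, Pecam1 (0.60, adjusted p 0.232) and Vwf (-0.59, adjusted p 0.254), and DESeq2 also called 0.

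In vehicle pups 7 of the 8 genes were higher in lung than in liver, where 70.8% of all genes were called, 39.8% higher and 31.1% lower. The median log2 difference was 1.59 over the 8 genes and 0.18 over all genes, and the tissues did not overlap for those 7 genes, as for 68.6% of all genes. These levels are in CPM scaled over all 24 libraries and differ from those above. Vwf averaged 314 ± 25.2 CPM in vehicle lung and 18.4 ± 3.13 CPM in vehicle liver (SD, n = 4 each), 17.0-fold higher (log2 difference 4.09, adjusted p in edgeR 4.20e-14). Edn1 averaged 20.4 ± 3.15 CPM in vehicle lung and 1.20 ± 0.657 CPM in vehicle liver (SD, n = 4 each), 16.9-fold higher (adjusted p in edgeR 1.69e-11).
The receptors differed less, with log2 differences of 2.05 for Tek, 1.64 for Flt1 and 1.54 for Kdr, followed by Vegfa at 0.91 and Pecam1 at 0.71. Nos3 averaged 29.3 ± 1.88 CPM in vehicle lung and 25.1 ± 7.46 CPM in vehicle liver (SD, n = 4 each; log2 difference 0.22, adjusted p in edgeR 0.216), and without liver vehicle replicate 1 the adjusted p was 0.0287. The scaling bears on this comparison: TMM factors were 1.43 to 1.66 in lung and 0.528 to 0.711 in liver. With library totals alone the median of all genes moved by 1.24, all 8 genes were called higher in lung, and Nos3 had a log2 difference of 1.45 (adjusted p 3.26e-08).

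On that common scale 7 of the 8 genes had all 3 lung group means above all 3 liver group means, Nos3 being the exception. Flt1 was highest in dexamethasone lung at 158 CPM, apart from desisobutyryl ciclesonide lung at 74.2 and vehicle lung at 67.8 CPM, which overlapped. Below these came dexamethasone liver at 27, desisobutyryl ciclesonide liver at 24.0 and vehicle liver at 21.8 CPM, each overlapping the next. Tek had the same group on top, at 224 CPM, with vehicle lung at 100.4 and desisobutyryl ciclesonide lung at 95.6 CPM overlapping.
Kdr was highest in desisobutyryl ciclesonide lung at 242 CPM and vehicle lung at 209 CPM, whose ranges overlapped. Dexamethasone lung, at 62.6 to 86.1 CPM, overlapped vehicle liver, at 65.8 to 84.0 CPM. Dexamethasone liver was lowest, at 29.1 to 45.4 CPM, below every other group. Nos3 was highest in dexamethasone lung at 44.2 CPM and next in dexamethasone liver at 36.9 CPM, and each of its 6 groups overlapped the next.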

How the data were processed

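Lung and liver RNA of the 24 libraries was analysed from whole-number counts per gene, deposited by the authors without normalization. Per the submitters' processing notes, cutadapt, HISAT2, HTSeq and build mRatBN7.2 were used. Their versions and the strand setting of the counting are not given in the sources used here, so counts of overlapping or antisense genes are uncertain. The 5 summary rows of unassigned reads (16.8% to 31.8% of a library) stayed out of library sizes and tests.

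Groups came from the sample titles. The counts were fitted in edgeR 4.0.16 (R 4.3.3). Genes that passed filterByExpr (minimum count 10) were scaled by TMM and tested by the robust quasi-likelihood F-test, adjusted by the Benjamini-Hochberg method at 0.05. Each tissue was fitted with its 12 libraries, and differences between tissues with all 24. The procedure was tested on simulated data first. Levels are CPM computed from these counts, and depth per library is given above. Alternatives were DESeq2 1.42.0, its size factors in edgeR, no filter, only the groups compared, the replicate block and leaving out each library. Library totals without TMM were added after seeing the data.

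The chi-square statistic divided by its degrees of freedom was 11.0 or more in all 36 replicate pairs, so no library was counted as a duplicate. Within a treatment, a lung library and the liver library with its number deviated from their group means in a like way in all 12 pairs (r 0.114 to 0.297 over 13245 genes), and own numbers correlated best in 12 of 12. On that basis a number is read as 1 pup in both tissues, which the labels do not state. The reported tests across tissues did not use this pairing and treated the libraries as independent.

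The 8 genes and the gene lists were chosen with earlier results of these data known. The rule named all 8 genes in every comparison. It also named genes of other lists and the genes most like each of the 8, through a table of names, but the RefSeq gene table at hand matched 0 of the Ensembl identifiers. Those lists, the markers of other cell types and the check of each tissue by its markers were therefore not used here.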

Additional observations from a re-analysis of the deposited data

Results flagged for a closer look

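Among 48 groups of 4 libraries (8 genes in 6 groups), 1 held a library far from the others, where chance gives about 1 in 20. Vegfa in dexamethasone liver replicate 1 was at 228.6 CPM, and the other 3 libraries of that group were at 295 to 301.0 CPM.

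The response to dexamethasone differed between tissues for 2 genes, by a test of the difference itself. For Flt1 the lung log2 change exceeded the liver log2 change by 0.91, and for Tek by 1.53 (adjusted p in edgeR 0.00825 and 5.95e-07).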

How the results depend on the processing

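Over the 8 genes and 9 comparisons, 1048 of 1160 values under an alternative kept their direction and their side of the threshold, 35 lost a call, 26 gained one and 51 changed sign. In lung, the calls of Kdr, Flt1, Tek and Nos3 with dexamethasone held in all alternatives run, as did those of Kdr with dexamethasone in liver and of Tek and Flt1 in the difference between tissues. The cause of the changes below was not tested.

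Library totals without TMM reversed uncalled log2 values in liver: Vegfa -0.029 and Vwf -0.15 with dexamethasone, Pecam1 -0.0035 with desisobutyryl ciclesonide and Tek 0.13 between the drugs. Without lung dexamethasone replicates 3 and 4 together, Edn1 between the drugs was 0.041. With no filter Nos3 in the dexamethasone response between tissues was -0.010. With DESeq2, and with its size factors in edgeR, Vegfa (0.048) and Flt1 (0.064) reversed in the desisobutyryl ciclesonide response between tissues.

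With desisobutyryl ciclesonide in lung 1 gene of the 8 was called with no filter and 1 with library totals, but 3 with DESeq2 and 3 when only the groups compared were fitted, against 2 in the reported fit. In liver the number was 2 when only the groups compared were fitted, against 1. DESeq2 called 4 of the 8 in the dexamethasone response between tissues (Vegfa and Edn1 beside Flt1 and Tek), against 2 in edgeR. Over all genes it called 1191 with desisobutyryl ciclesonide in liver, against 621 in edgeR, and 1060 in the response of that drug between tissues, against 558 in edgeR, or 900 with only the groups compared.

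Library totals moved the share of calls that were higher to 32.8% for desisobutyryl ciclesonide in lung (48.8% with TMM), 29.4% for dexamethasone in liver (47.5%), 35.5% for desisobutyryl ciclesonide in liver (46.2%), 67.3% between the drugs in liver (51.5%), 86.5% between vehicle tissues (56.1%) and 62.5% for the dexamethasone response between tissues (51.9%). For the desisobutyryl ciclesonide response it was 61.7% with DESeq2's size factors in edgeR and 61.8% in DESeq2, against 49.6%.

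Leaving out each library in turn gave 1 to 2 called genes of the 8 with desisobutyryl ciclesonide in lung (2564 to 3366 over all genes), 1 to 4 with dexamethasone in liver, 0 to 1 with desisobutyryl ciclesonide in liver (295 to 482 over all genes) and 2 to 5 between the drugs in liver, and 368 to 562 genes for the desisobutyryl ciclesonide response between tissues. Log2 values that changed sign ranged, in lung, over -0.026 to 0.37 (Kdr, desisobutyryl ciclesonide) and -0.15 to 0.088 (Edn1, between the drugs). In liver they ranged over -3.49e-05 to 0.15 (Vwf, dexamethasone), -0.088 to 0.039 (Kdr), -0.043 to 0.15 (Pecam1) and -0.21 to 0.13 (Nos3) with desisobutyryl ciclesonide, and -0.17 to 0.046 (Tek, between the drugs). In the responses between tissues they ranged over -0.13 to 0.21 (Nos3, dexamethasone), and with desisobutyryl ciclesonide over -0.13 to 0.16 (Vegfa), -0.10 to 0.15 (Flt1), -0.040 to 0.30 (Nos3) and -0.52 to 0.15 (Edn1).

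Across tissues the replicate block was the pup, as treatment and number together. With it the comparisons across tissues kept their number of called genes at 7 for vehicle, 2 for dexamethasone and 0 for desisobutyryl ciclesonide. Within a tissue the block was the number alone, which is all that libraries share (r -0.287 to 0.414, own number best in 8 of 24). There the block gave 6 called genes for dexamethasone in lung (Vegfa -0.35, adjusted p in edgeR 0.0168) and 5 between the drugs in liver (Edn1 1.27, adjusted p in edgeR 0.0374), and left the other numbers of called genes at 2 and 7 in lung and 3 and 1 in liver. Edn1 in liver rested on 2 to 26 counts per library, which limits the precision of its values.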
